A study of Mus musculus with 6 samples.

Results

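The genes described here encode the translation initiation factors (eIFs) and elongation factors (eEFs) of BM neutrophils. They were all protein-coding genes whose symbol begins with Eif1 to Eif6 or with Eef1 or Eef2, without the eIF2 kinases (Eif2ak genes). The rule used names only, no measured value, and it found 63 genes among the 38887 gene identifiers in the count table. Of these, 59 had enough counts to be tested. The 4 others were Eef1a2 and Eif4e1b with 0 counts in every library, Eif5a2 with 0 to 3 counts per library, and Eif2s3y, a gene of the Y chromosome, with 5 counts in the second one-week library and 0 elsewhere.

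Neutrophils were selected with Ly6G beads from the BM of C57BL/6 mice in 3 groups. Naive mice received no tumor cells, and the others were studied 1 week or 3 weeks after LL2 cells, a Lewis lung carcinoma line that carries luciferase, were injected intravenously to seed tumors in the lung. Each group had 2 libraries, numbered as replicate mice in the labels, and the comparisons ask how neutrophils of an early and of an advanced tumor differ from those of tumor-free mice and from each other. The methods name C57BL/6N CD45.1+ animals of both sexes and C57BL/6 CD45.2+ females, all 6 to 8 weeks of age, without saying which of them gave these cells. No mutant allele or drug was part of any group.

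In every cell, a ternary complex of eIF2, GTP and the initiator tRNA binds the small ribosomal subunit together with eIF1, eIF1A, eIF3 and eIF5. The cap-binding complex eIF4F, made of eIF4E, the scaffold eIF4G and the RNA helicase eIF4A, brings this subunit to the 5′ cap of an mRNA, and eIF2B, the exchange factor of eIF2, recharges eIF2 with GTP after each round. eIF4E-binding proteins (4E-BPs) hold eIF4E back until the kinase mTORC1 phosphorylates them. During elongation, eEF1A delivers aminoacyl-tRNAs, eEF1B recharges it, and eEF2, which eEF2 kinase inhibits, moves the ribosome along. Neutrophils make most of their granule proteins as precursors in the BM and translate less as they mature.

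The libraries held between 11994158 and 14127919 counts, and a detection limit of 3 counts stood for 0.2 to 0.246 CPM, which covers counting error only. CPM are read counts relative to a library's total times its TMM factor, the scaling between libraries (0.9134 to 1.072). The 9 mature neutrophil markers, led by S100a8, summed to between 243600 and 327300 CPM, whereas Ly6g itself had only 0.491 to 2.14 CPM. At 3 weeks, 5 precursor genes (Elane, Mpo, Prtn3, Ctsg and Ms4a3) were higher than in naive mice and 3 (Camp, Ltf and Ngp) lower, and all 7 B lineage genes were lower (summed level 11.6 and 13.4 CPM against 43.1 and 54.5 CPM in naive mice). The summed level of 7 proliferation genes was 507 and 531 CPM in naive mice, 427 and 504 CPM in one-week LL2 mice and 278 and 293 CPM in three-week LL2 mice, where 4 of the 7 were lower than in naive mice. The 5 eosinophil, basophil and mast cell genes summed to 22.3 and 25.1 CPM in naive mice, 45.4 and 47.2 CPM at 1 week, where 3 were called higher, and 16.1 and 18.5 CPM at 3 weeks. The second three-week library held less erythroid RNA (7 genes, 569 CPM) than the others (1192 to 1501 CPM). The second one-week library also held 26 counts of the Y-linked gene Ddx3y, 7 of Uty and 3 of Kdm5d, against 0 to 2 of each elsewhere, and most counts of the T cell genes Cd3e (11) and Cd3g (15). Xist was present in all libraries (127 to 272 CPM) and was lower at 1 week than in naive mice (-0.69 ± 0.18, adjusted p = 0.0358). The part of these shifts in the results was not tested. In bulk RNA, fewer cells of a type and less RNA per cell cannot be told apart.

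Most translation factor genes did not pass the test, and those that did were mainly higher at 3 weeks. In BM neutrophils from one-week LL2 mice, 0 members were higher and 2 lower than in naive mice, while 7.99% of the 12259 genes tested were called in this comparison (4.23% higher and 3.76% lower). In three-week LL2 mice, 10 members were higher and 2 lower than in naive mice (20.3% of the 59, against 21.4% of all genes, 12% of them higher and 9.42% lower). Against one-week LL2 mice, 14 were higher and 2 lower at 3 weeks (27.1% of the 59, against 22.5% of all genes, 12.9% of them higher and 9.57% lower). The members' share called was below that of all genes at 1 week, near it at 3 weeks against naive mice and above it at 3 weeks against 1 week. Higher calls outnumbered lower ones in both three-week comparisons but not at 1 week.

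A call means an adjusted p-value under 0.05 by edgeR's quasi-likelihood test with Benjamini-Hochberg adjustment over all genes tested, and ± after a log2 fold change is its standard error in that fit. For the count of 0 at 1 week, 5 members were higher at an unadjusted p under 0.05, and DESeq2 also called 0. Over the 59 tested members, the median log2 fold change was -0.05, 0.11 and 0.14 in the 3 comparisons, beside 0.01, 0.03 and -0.02 for all genes. The scaling between libraries mattered for the direction of calls. Where library totals alone were used, the median of all genes moved to 0.07, -0.11 and -0.22, and the members' calls became 6 higher and 6 lower at 3 weeks against naive mice and 4 higher and 6 lower against 1 week. The naive libraries serve both tumor groups, so the comparisons are not independent of each other. Libraries of 2 groups that do not overlap are a description and not a call. At 1 week against naive mice, 16 of the 59 tested members lay above, 19 below and 24 overlapped, while 2 were called. At 3 weeks these numbers were 27, 11 and 21, while 12 were called. The share of all genes without overlap was not counted.

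**Figure D1:**
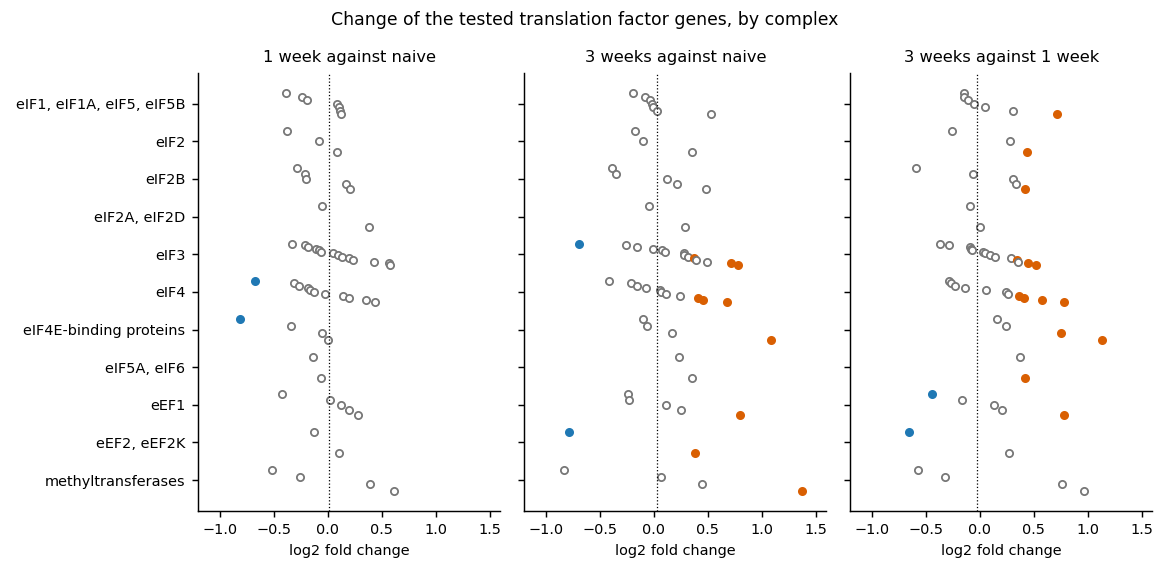
Log2 fold change of the 59 tested translation factor genes (x axis) by complex (rows) in the 3 comparisons. Each circle is 1 gene: filled orange circles were called higher, filled blue circles called lower, open circles were not called, and the dotted line is the median of all genes tested. At 1 week the 2 filled circles are Eif4e3 and Eif4ebp2, and at 3 weeks most filled circles lie to the right.

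In total, 23 members were called in at least 1 comparison and 36 in none. How many of all genes were called in at least 1 comparison was not counted. These numbers thus stand without a share of all genes beside them. Of the 30 calls, 7 were also made under 8 other settings of scaling, test, filter, gene set, pairing and samples and with each library left out in turn: Eif4ebp1 and Eef1a1 against both naive and one-week LL2 mice, Eif3k and Eif4h against naive mice, and Eif4e3 against one-week LL2 mice. None of the 30 changed direction in these fits, and none reached the 5-fold change that the study's threshold also asked for.

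Sequence around the transcription start of these genes was available as RefSeq promoter windows (GRCm38.p6, 250 bases before to 50 after the start) for 47 of the 63 members. They were searched for a run of at least 8 C or T on the gene's strand within 20 bases of the start, the kind of letters found at the start of 5′ terminal oligopyrimidine (TOP) mRNAs, whose translation mTORC1 controls, and for the E-box letters CACGTG, which read the same on both strands. Such runs were present in 20.8% of all windows, 27.7% of the members' windows and 48.4% of those of cytosolic ribosomal protein genes. Of the 10 members higher at 3 weeks than in naive mice, 9 had a window, and 6 of these held a run. Eif4b, 1 of those 9 and a known TOP mRNA, held none, and neither did the windows of Eef1b2 and Eif3a, also listed as known TOP mRNAs. In turn, Eif3k, Eif3m and Eef1akmt2 held a run and are not on that list. A run in a window thus did not stand for a known TOP mRNA, nor its absence for the lack of one. CACGTG was present in 7.24% of all windows, in 21.3% of the members' and in 4 of those 9. The letters were chosen with results known, and a match is a description only. The windows of these genes are given as 30 bases on the gene's strand, with the run in capitals:
Eef1a1, chr9:78481710-78481739, minus strand: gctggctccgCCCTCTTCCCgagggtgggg
Eef2, chr10:81176634-81176663, plus strand: gacgtcagcggTCTCTTCCgccgcagccgc
Eif3f, chr7:108934403-108934432, plus strand: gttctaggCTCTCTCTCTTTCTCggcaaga
Eif3k, chr7:28981856-28981885, minus strand: gctgaaagcgCCTTTCCCTTTgccttcctt
Eif3m, chr2:105017028-105017057, minus strand: tacggcaccgCTCTCTTTTCCggtcggcgt
Eef1akmt2, chr7:132852641-132852670, minus strand: caggtccgcgCCTCCCCTCTgcccaaatcg

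In Eef1a1 and Eif3f the run spanned the RefSeq start itself, beginning 5 and 4 bases before it, whereas in Eef2 and Eif3k it began 14 and 13 bases after it. In Eif3m and Eef1akmt2 the run began 20 and 13 bases before the RefSeq start and ended before reaching it. The annotated Eef1a1 gene spans 78478449 to 78489151, so its first base on the minus strand lies upstream of this window. Whether any of these runs lies at the 5′ end of an mRNA was not checked. The 4 members with CACGTG among those higher at 3 weeks are shown in the same way with these 6 letters in capitals, and Eef2k, which was lower at 3 weeks, held them too:
Eef2, chr10:81176576-81176605, plus strand: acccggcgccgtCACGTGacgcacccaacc
Eif3f, chr7:108934335-108934364, plus strand: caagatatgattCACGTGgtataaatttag
Eif3k, chr7:28981915-28981944, minus strand: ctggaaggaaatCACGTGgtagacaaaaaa
Eif4h, chr5:134639488-134639517, minus strand: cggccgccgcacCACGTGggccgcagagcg
Eef2k, chr7:120842788-120842817, plus strand: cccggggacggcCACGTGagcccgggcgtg

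The 6 letters lay 96 bases before the start in Eif4h, 68 in Eif3f, 44 in Eif3k, 43 in Eef2 and 31 in Eef2k. Among the 28 windows of members called in no comparison, 3 held a C/T run and 3 held CACGTG. The windows were searched for 2 further motifs, TGACGTCA (1.88% of all windows, Eef2 alone among the members) and CCGGAAGT (4% of all windows and 14.9% of the members', none of the 9 higher at 3 weeks).

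The smallest adjusted p-values among the members belonged to an inhibitor of the cap-binding protein. Eif4ebp1 (chromosome 8, 27260329 to 27276674, GRCm38) encodes 4E-BP1, the best known of the 4E-BPs. It had 42.0 and 54.0 CPM in naive mice, 47.6 and 45.2 CPM in one-week LL2 mice and 105 and 98.4 CPM in three-week LL2 mice. Both three-week libraries were above all 4 others, which overlapped among themselves. The log2 fold change at 3 weeks was 1.08 ± 0.14 against naive mice (adjusted p = 1.29e-04) and 1.13 ± 0.14 against one-week LL2 mice (adjusted p = 7.71e-05), and it was -0.05 ± 0.14 (adjusted p = 0.878) between 1 week and naive.

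Eif4ebp2 (chromosome 10, 61428491 to 61452661), which encodes a second protein of this kind, moved at the other time point. Its levels were 29.2 and 24.6 CPM in naive mice, 13.8 and 16.9 CPM at 1 week and 29.4 and 22.1 CPM at 3 weeks, so that both one-week libraries were below all others. The gene fell at 1 week by 0.81 ± 0.18 on the log2 scale (adjusted p = 0.0155) and was higher at 3 weeks than at 1 week by 0.75 ± 0.18 (adjusted p = 0.00863). The log2 fold change at 1 week was -0.69 without the first naive library and -0.68 without the first one-week library, where the call was lost. It was -0.97 without the second one-week library, where the call held. Fewer of all genes were called in these fits as well, which leave 1 library in a group. The rise after 1 week was not called without the first one-week library (adjusted p = 0.107) and without the first three-week library (adjusted p = 0.0805).

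Neither of the remaining genes of this group was called. Eif4ebp3, the third 4E-BP, had 9.65 and 13.3 CPM in naive mice, 8.01 and 10.1 CPM at 1 week and 11.2 and 10.3 CPM at 3 weeks, with overlapping groups except that both three-week libraries were above both one-week libraries. Eif4enif1, which encodes the eIF4E transporter 4E-T, had 30.6 and 32.5 CPM, 28.7 and 34.7 CPM, and 34.4 and 36.5 CPM in the same order. Thus within 1 small family of inhibitors, 1 gene was higher at 3 weeks and another lower at 1 week.

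Among the cap-binding proteins, Eif4e3 (chromosome 6, 99625135 to 99666771) followed the pattern of Eif4ebp2. It encodes a cap-binding relative of eIF4E that is less studied than eIF4E itself. Its levels were 111 and 103 CPM in naive mice, 73.6 and 60.9 CPM at 1 week and 129 and 102 CPM at 3 weeks, with both one-week libraries below the rest. The log2 fold change was -0.67 ± 0.14 at 1 week (adjusted p = 0.0133), and 0.78 ± 0.14 between 3 weeks and 1 week (adjusted p = 0.00154). The fall at 1 week was not called without the first naive library (adjusted p = 0.128) or the second one-week library (adjusted p = 0.133), which was the library with the Y-linked and T cell counts.

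Eif4e, which encodes the main cap-binding protein, had 23.0 and 22.1 CPM in naive mice, 21.8 and 17.9 CPM at 1 week and 16.4 and 17.4 CPM at 3 weeks. The three-week libraries were the lowest, but the change was not called (adjusted p = 0.0736 against naive mice). Eif4e2, which encodes 4EHP, a cap-binding protein that represses translation, had 38.5 and 33.7 CPM, 30.6 and 33.9 CPM, and 44.2 and 41.5 CPM. It was higher at 3 weeks than at 1 week by 0.41 ± 0.13 (adjusted p = 0.0399), a call lost in 5 of the 8 other settings, DESeq2 and library totals alone among them (adjusted p up to 0.306), and in 5 of the 6 fits that left out a library (adjusted p up to 0.274).

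Ratios of counts within a library do not depend on the scaling between libraries. Per read of Eif4e, there were 1.83 and 2.44 reads of Eif4ebp1 in naive mice, 2.19 and 2.53 at 1 week and 6.40 and 5.66 at 3 weeks. Reads of Eif4e3 per read of Eif4e were 4.83 and 4.66, then 3.38 and 3.40, then 7.86 and 5.89. Both ratios were thus highest at 3 weeks, without overlap with the other groups, and that of Eif4e3 was lowest at 1 week.

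**Figure D2:**
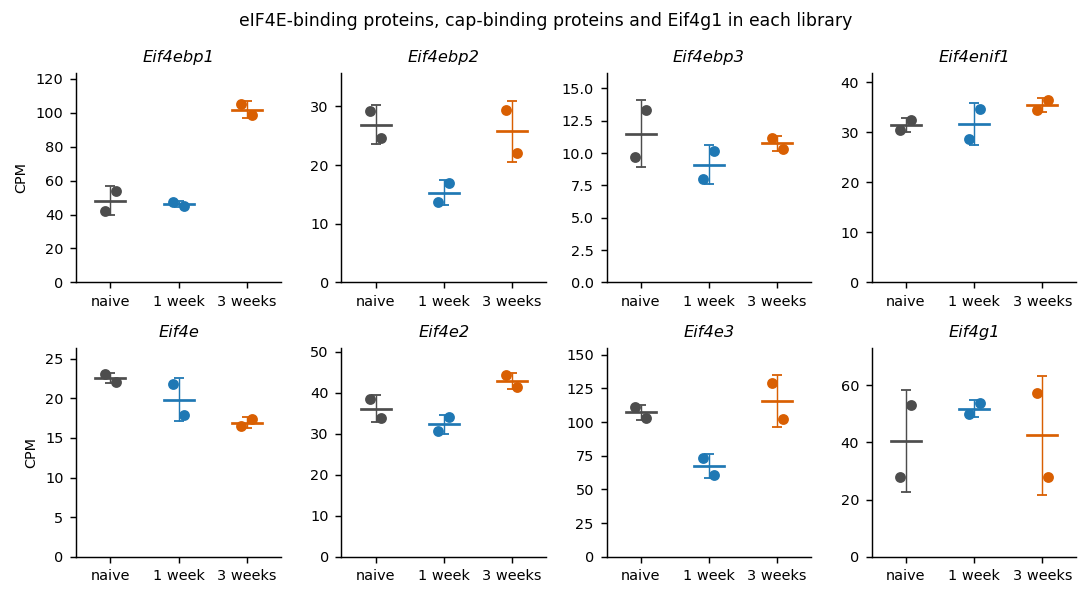
CPM (y axis) of the 4 eIF4E-binding protein genes, the 3 detected cap-binding protein genes and Eif4g1 in naive, one-week and three-week LL2 mice (x axis). Points are libraries, horizontal lines group means and error bars the SD (n = 2). Eif4ebp1 is highest at 3 weeks, Eif4ebp2 and Eif4e3 are lowest at 1 week, and the 2 libraries of Eif4g1 lie far apart in naive and in three-week LL2 mice.

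The other eIF4 genes encode the scaffold, the helicase and its helpers. Eif4h (chromosome 5, 134619721 to 134639490), whose product stimulates the helicase eIF4A, had 36.2 and 34.9 CPM in naive mice, 51.5 and 44.7 CPM at 1 week and 55.2 and 58.8 CPM at 3 weeks. The groups did not overlap, and the order was naive, 1 week, 3 weeks. It rose at 3 weeks by 0.68 ± 0.13 on the log2 scale (adjusted p = 0.00205), while the difference at 1 week, 0.44 ± 0.13, was not called (adjusted p = 0.0539). Eif4b, which encodes another helper of eIF4A and has a TOP mRNA, had 51.8 and 54.0 CPM, 47.7 and 49.3 CPM, and 66.9 and 78.3 CPM, highest in both three-week libraries. Its log2 fold change at 3 weeks was 0.46 ± 0.12 against naive mice (adjusted p = 0.0199) and 0.58 ± 0.12 against 1 week (adjusted p = 0.00475). With library totals alone as scaling, the adjusted p-values were 0.115 and 0.0501. The first call was also lost without the first or the second naive library or the second three-week library (adjusted p = 0.134, 0.0583 and 0.163), and the second without the first one-week library (adjusted p = 0.0553).

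The paralogues of the helicase differed in their calls. Eif4a1 had 136 and 126 CPM in naive mice, 107 and 105 CPM at 1 week and 136 and 136 CPM at 3 weeks, and was higher at 3 weeks than at 1 week by 0.37 ± 0.11 (adjusted p = 0.0302). Eif4a2 had 129 and 126 CPM, 154 and 138 CPM, and 104 and 139 CPM, with no call. Reads of Eif4a1 per read of Eif4a2 were 1.06 and 1.00 in naive mice, 0.693 and 0.759 at 1 week and 1.31 and 0.981 at 3 weeks, lowest at 1 week. The call for Eif4a1 was lost with library totals alone (adjusted p = 0.332), without a filter on low counts and in the 4 fits that left out a one-week or a three-week library (adjusted p up to 0.209). Eif4a3, which encodes the related helicase of the exon junction complex, was not called, at 120.1 to 148 CPM over the libraries.

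Of the scaffold genes, Eif4g3 had 78.5 and 66.6 CPM in naive mice, 88.7 and 71.7 CPM at 1 week and 99.98 and 92.8 CPM at 3 weeks. It was called higher at 3 weeks than in naive mice (0.41 ± 0.14, adjusted p = 0.0489), and the call was lost in 5 of the 8 other settings (adjusted p up to 0.248) and whichever library was left out (adjusted p up to 0.24). Eif4g1 differed more between libraries of a group than between groups, with 27.9 and 53.1 CPM in naive mice, 49.8 and 53.8 CPM at 1 week and 57.1 and 27.7 CPM at 3 weeks. Eif4g2, which encodes DAP5, a scaffold that lacks the eIF4E-binding part, was the most abundant of them per length (55.9 RPKM in naive mice, against 11.8 RPKM for Eif4g3 and 7.44 RPKM for Eif4g1) and was not called. RPKM here are CPM per kilobase of the main annotated transcript.

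Elongation factor genes held the most abundant changed transcript. Eef1a1 (chromosome 9, 78478449 to 78489151), which encodes eEF1A1 and whose C/T run is shown among the promoter windows, had 918 and 885 CPM in naive mice, 914 and 910.1 CPM in one-week LL2 mice and 1457 and 1674 CPM in three-week LL2 mice. The naive and one-week libraries were nearly level and both three-week libraries lay far above them. The rise was 0.80 ± 0.11 on the log2 scale against naive mice (adjusted p = 2.83e-04) and 0.78 ± 0.11 against 1 week (adjusted p = 2.90e-04). Processed pseudogenes of Eef1a1 are common, and how the authors' counting split reads among such copies was not checked.

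Per length, Eef1a1 stood at 502 ± 12.8 RPKM (SD, n = 2) in naive mice, the second level among the members after Eif1 at 888 ± 26.2 RPKM. At 3 weeks it was at 873 ± 85.5 RPKM, level with Eif1 at 867 ± 8.56 RPKM within the spread of the libraries. Reads of Eif1 per read of Eef1a1 were 1.25 and 1.35 in naive mice, 1.38 and 1.40 at 1 week and 0.792 and 0.68 at 3 weeks. Eef1a1 alone made up 14.8% to 15.5% of the members' summed CPM in naive and one-week LL2 mice and 21.4% and 23.8% in three-week LL2 mice.

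The summed level of all 63 members was 5925 and 5964 CPM in naive mice, 5927 and 5865 CPM at 1 week and 6811 and 7039 CPM at 3 weeks. Without Eef1a1 these sums were 5008 and 5079 CPM, 5013 and 4955 CPM, and 5354 and 5365 CPM. As a share of all counts in a library, with no TMM factor, the members held 0.624% and 0.59%, 0.634% and 0.615%, and 0.622% and 0.655%, and these shares overlapped between the groups. The higher sum at 3 weeks was thus seen with the TMM factors and not without them. These factors were 0.9134 and 0.9315 in the three-week libraries and 0.9895 to 1.072 in the others.

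Of the other eEF1 subunit genes, only Eef1g was called. Eef1g, which encodes the gamma subunit, had 39.96 and 40.03 CPM in naive mice, 44.3 and 47.7 CPM at 1 week and 33.7 and 34.2 CPM at 3 weeks. It was lower at 3 weeks than at 1 week by 0.44 ± 0.12 (log2 fold change -0.44, adjusted p = 0.0201), and it was not called against naive mice. The call was lost when either one-week library (adjusted p = 0.0527 and 0.128) or either three-week library (adjusted p = 0.107 and 0.0825) was left out. Eef1b2, which encodes a nucleotide exchange subunit, had 225 and 226 CPM in naive mice, 232 and 259 CPM at 1 week and 251 and 287 CPM at 3 weeks. Both tumor groups were above the naive libraries, but the gene was not called (0.26 ± 0.12 at 3 weeks, adjusted p = 0.141). Eef1d, which encodes the other exchange subunit, was not called either, at 14.9 to 20.5 CPM over the libraries.

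Within a library, reads of Eef1a1 per read of Eef1g were 23.0 and 22.1 in naive mice, 20.7 and 19.1 at 1 week and 43.3 and 49.0 at 3 weeks. Per read of Eef1b2, reads of Eef1a1 numbered 4.08 and 3.93, then 3.94 and 3.52, then 5.81 and 5.84. Both ratios were highest at 3 weeks with no overlap. Eef1a2, the paralogue of Eef1a1 known from neurons and muscle, had 0 counts in all 6 libraries, against a limit of 3 counts or 0.2 to 0.246 CPM. Eef1e1, which encodes a scaffold of the multi-tRNA synthetase complex, was detected at 0.597 to 1.27 CPM without a call.

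Eef2 and the gene of its kinase moved in opposite directions. Eef2 (chromosome 10, 81176631 to 81182498) had 311 and 368 CPM in naive mice, 357 and 374 CPM at 1 week and 444 and 439 CPM at 3 weeks. Eef2k had 14.3 and 15.9 CPM, 14.2 and 13.4 CPM, and 7.21 and 10.3 CPM. Both three-week libraries were thus the highest for Eef2 and the lowest for Eef2k.

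Eef2 rose at 3 weeks against naive mice by 0.38 ± 0.12 (adjusted p = 0.0333). The call was lost with library totals alone (adjusted p = 0.144) and with the 2 compared groups alone. It was also lost in 5 of the 6 fits that left out a library, all but that without the second naive library. Eef2k fell at 3 weeks by 0.78 ± 0.20 on the log2 scale against naive mice (adjusted p = 0.0121) and by 0.66 ± 0.19 against 1 week (adjusted p = 0.0274). Without the first three-week library, the adjusted p-values were 0.112 and 0.234. The first call was also lost without the second naive library (adjusted p = 0.0778), and the second without the first or the second one-week library (adjusted p = 0.104 and 0.0667) and with DESeq2 (adjusted p = 0.0562). Reads of Eef2 per read of Eef2k were 21.7 and 23.1 in naive mice, 25.1 and 27.8 at 1 week and 61.5 and 42.6 at 3 weeks.

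**Figure D3:**
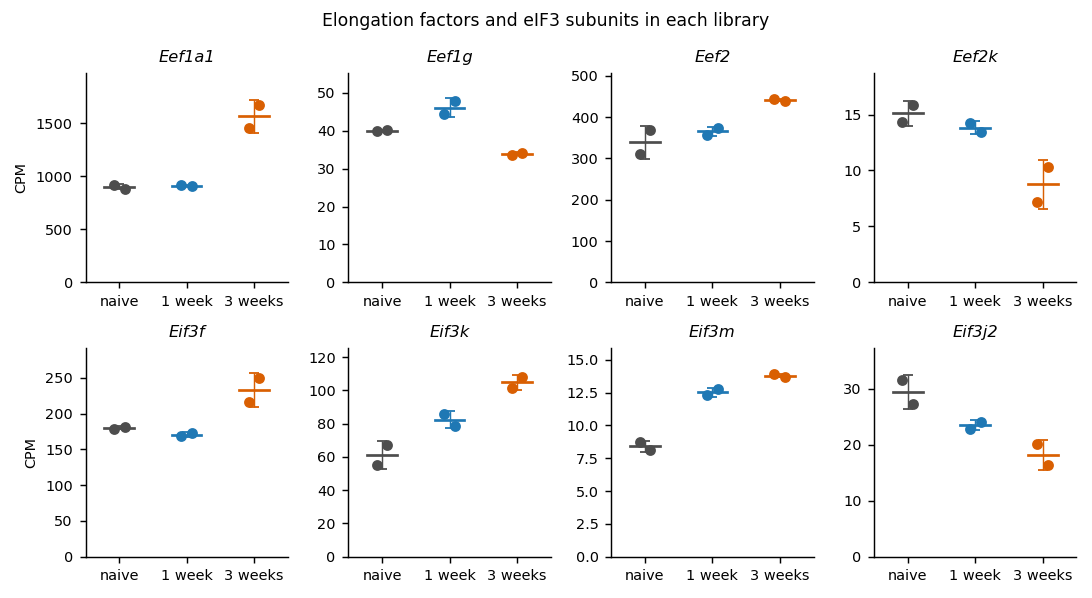
CPM (y axis) of 4 elongation factor genes (upper row) and 4 eIF3 subunit genes (lower row) in naive, one-week and three-week LL2 mice (x axis). Points are libraries, horizontal lines group means and error bars the SD (n = 2). At 3 weeks Eef1a1, Eef2, Eif3f, Eif3k and Eif3m are above the naive libraries, and Eef1g, Eef2k and Eif3j2 are below them.

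The genes of the eEF1A methyltransferases were low. Eef1akmt2, whose product methylates eEF1A, had 1.58 and 1.47 CPM in naive mice, 1.74 and 2.98 CPM at 1 week and 4.42 and 3.54 CPM at 3 weeks. It had the largest log2 fold change of the members at 3 weeks, 1.37 ± 0.39 (adjusted p = 0.0228), with the largest standard error among the called members. The call was lost with DESeq2 (adjusted p = 0.0527) and without the first or second naive library or the first three-week library (adjusted p = 0.104, 0.0958 and 0.117). Eef1akmt1 (2.00 to 5.27 CPM) and Eef1akmt3 (0.154 to 2.30 CPM) were not called, and neither was Eef2kmt, whose product methylates eEF2, at the higher level of 34.4 to 46.9 CPM.

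eIF3, the largest initiation factor, had calls in some of its genes. Of its 14 genes, 3 were higher (Eif3f, Eif3k and Eif3m) and 1 lower (Eif3j2) at 3 weeks than in naive mice, or 28.6% called against 21.4% of all genes. At 3 weeks 3 were higher than at 1 week (Eif3c, Eif3f and Eif3h), or 21.4% called against 22.5% of all genes. None was called at 1 week against naive mice. For that 0, 3 genes were higher and 0 lower at an unadjusted p under 0.05, and DESeq2 called 0. The median log2 fold change of the 14 genes was 0.07 at 1 week and 0.28 at 3 weeks against naive mice, beside 0.01 and 0.03 for all genes.

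Eif3k (chromosome 7, 28971372 to 28981864) encodes a peripheral subunit of the complex. It had 55.2 and 66.9 CPM in naive mice, 85.9 and 78.6 CPM at 1 week and 102 and 108 CPM at 3 weeks, so that the 3 groups stood apart in the order naive, 1 week, 3 weeks. The rise at 3 weeks was 0.78 ± 0.13 on the log2 scale (adjusted p = 8.42e-04), and the difference at 1 week was 0.43 ± 0.13 (adjusted p = 0.0575). Eif3m had the same order, with 8.71 and 8.11 CPM, 12.3 and 12.8 CPM, and 13.9 and 13.7 CPM. It rose at 3 weeks by 0.71 ± 0.17 (adjusted p = 0.0103), a call lost without the first naive library (adjusted p = 0.0538) or the second (adjusted p = 0.0553).

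Eif3l, which encodes the partner of the k subunit, was not called and did not rise from 1 week to 3 weeks (log2 fold change -0.07). It had 10.3 and 9.01 CPM in naive mice, 14.7 and 13.95 CPM at 1 week and 12.4 and 14.8 CPM at 3 weeks, with both tumor groups above the naive libraries (0.57 ± 0.18, adjusted p = 0.0668 at 1 week, and 0.50 ± 0.18, adjusted p = 0.0639 at 3 weeks). Reads of Eif3k per read of Eif3d, which encodes the cap-contacting subunit, were 1.30 and 1.37 in naive mice, 2.23 and 1.88 at 1 week and 2.69 and 2.83 at 3 weeks. Both genes of 1 complex thus stood in a different proportion in each group.

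Eif3f, with both a C/T run and CACGTG in its window, had 179 and 182 CPM in naive mice, 168 and 173 CPM at 1 week and 217 and 250 CPM at 3 weeks. It was higher at 3 weeks by 0.37 ± 0.11 against naive mice (adjusted p = 0.0349) and by 0.45 ± 0.11 against 1 week (adjusted p = 0.0126). With library totals alone, these became 0.22 (adjusted p = 0.202) and 0.25 (adjusted p = 0.137). The call against naive mice was also lost without a filter on low counts and with the 2 compared groups alone. In 5 of the 6 fits that left out a library, it was lost as well. That against 1 week was lost without either one-week library or the second three-week library (adjusted p = 0.113, 0.0926 and 0.0992).

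Eif3h, which like Eif3f encodes a subunit with an MPN domain, had 104 and 98.3 CPM in naive mice, 81.2 and 94.3 CPM at 1 week and 120 and 133 CPM at 3 weeks. It was higher at 3 weeks than at 1 week by 0.52 ± 0.12 (adjusted p = 0.0078), a call lost with library totals alone (adjusted p = 0.0826) and without the first one-week or second three-week library (adjusted p = 0.118 and 0.0529). Eif3c, which encodes a core subunit, had 69.5 and 64.3 CPM, 62.6 and 65.5 CPM, and 80.5 and 82.1 CPM. Its difference between 3 weeks and 1 week, 0.34 ± 0.12 (adjusted p = 0.0484), was called in 3 of the 14 alternatives, the fewest of any member together with Eif2s3x, Eif4g3 and Eif6.

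The paralogues of the j subunit, a loosely bound part of eIF3, had different levels. Eif3j2 had 31.7 and 27.3 CPM in naive mice, 22.9 and 24.2 CPM at 1 week and 20.2 and 16.4 CPM at 3 weeks, in falling order of the groups without overlap. It fell at 3 weeks by 0.69 ± 0.15 on the log2 scale (adjusted p = 0.00658), and the call was lost without the first naive library (adjusted p = 0.0601) and without the second three-week library (adjusted p = 0.0624). Eif3j1 had 8.07 and 10.8 CPM, 9.81 and 10.9 CPM, and 9.08 and 7.92 CPM, with no call. These genes are near-identical in coding sequence, and how the authors' counting split reads between them was not checked.

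eIF2 and eIF2B, the complex and exchange factor that the integrated stress response acts on, had few calls. None of the 3 tested eIF2 genes was called against naive mice at either time by edgeR, with 1 lower at 1 week and 1 higher at 3 weeks at an unadjusted p under 0.05, while DESeq2 called 1 lower at 1 week. Eif2s1, which encodes the alpha subunit whose phosphorylation stops initiation, had 6.09 and 6.30 CPM in naive mice, 7.01 and 6.12 CPM at 1 week and 5.59 and 5.38 CPM at 3 weeks. Eif2s2, which encodes the beta subunit, had 216 and 227 CPM, 176 and 165 CPM, and 202 and 211 CPM. Both one-week libraries were the lowest for Eif2s2, and its log2 fold change of -0.38 ± 0.11 at 1 week missed the threshold (adjusted p = 0.0509).

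The gamma subunit has an X-linked and a Y-linked gene. Eif2s3x had 32.5 and 31.3 CPM in naive mice, 27.6 and 32.7 CPM at 1 week and 44.4 and 37.0 CPM at 3 weeks, and was higher at 3 weeks than at 1 week by 0.43 ± 0.14 (adjusted p = 0.0439), a call lost in 6 of the 8 other settings, DESeq2 and library totals alone among them (adjusted p up to 0.268), and in 5 of the 6 fits without a library (adjusted p up to 0.331). Eif2s3y had only the 5 counts of the second one-week library (0.373 CPM), the library that also held most counts of the other Y-linked genes. Per length, the eIF2 genes differed widely in naive mice, with 87.2 ± 3.15 RPKM for Eif2s2, 8.74 ± 0.229 RPKM for Eif2s3x and 1.82 ± 0.0438 RPKM for Eif2s1 (SD, n = 2), although their proteins form a complex of equal parts. Reads of Eif2s2 per read of Eif2s1 were 35.4 and 36.1 in naive mice, 25.1 and 27.0 at 1 week and 36.2 and 39.2 at 3 weeks.

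The eIF2B subunits were listed from Eif2b1 (alpha) to Eif2b5 (epsilon, the catalytic subunit). Eif2b1 had 3.01 and 1.72 CPM in naive mice, 2.80 and 2.54 CPM at 1 week and 2.33 and 4.31 CPM at 3 weeks. Eif2b2 had 31.9 and 36.4 CPM, 28.5 and 30.7 CPM, and 38.0 and 41.1 CPM. Only the latter gene was called, higher at 3 weeks than at 1 week by 0.42 ± 0.13 (adjusted p = 0.0376), and the call was lost in 4 of the 8 other settings, DESeq2 and library totals alone among them (adjusted p up to 0.26), and when any one-week or three-week library was left out (adjusted p up to 0.24).

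None of the remaining eIF2B genes was called. Eif2b3 had 1.82 and 1.72 CPM in naive mice, 2.14 and 1.94 CPM at 1 week and 1.78 and 0.923 CPM at 3 weeks. Eif2b4 had 21.9 and 22.9 CPM, 17.2 and 19.6 CPM, and 16.9 and 18.4 CPM, with both tumor groups below the naive libraries. Eif2b5 had 10.4 and 11.5 CPM, 9.15 and 9.70 CPM, and 12.3 and 11.5 CPM. The genes of alternative initiator tRNA factors, Eif2a (109.8 to 134 CPM) and Eif2d (1.74 to 3.80 CPM), were not called.

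**Figure D4:**
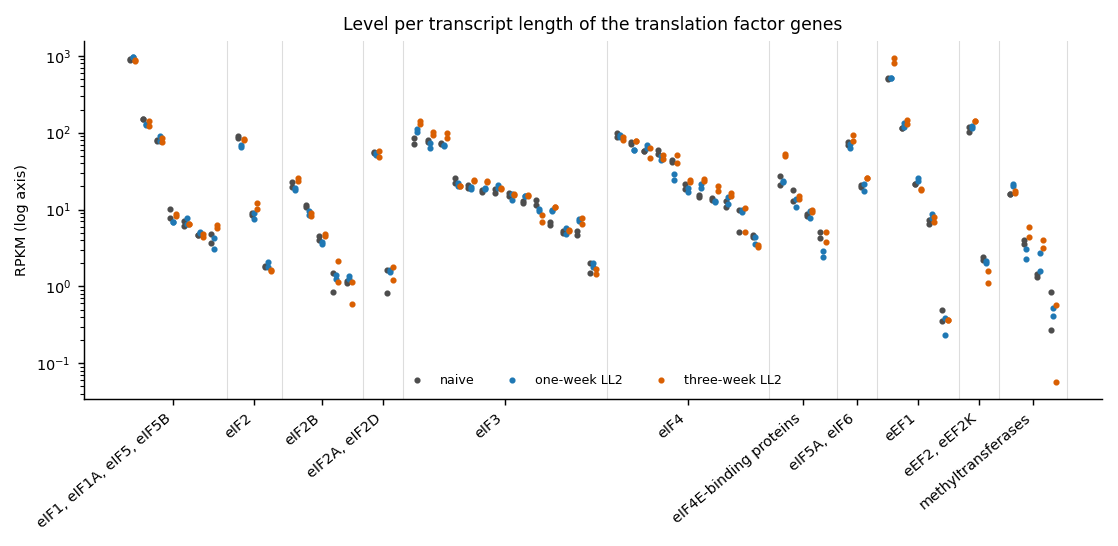
Level per transcript length (RPKM, log axis) of the translation factor genes, grouped by complex on the x axis and ordered within a complex from the highest to the lowest naive mean. Points are libraries, coloured by group, and members under 0.1 RPKM in naive mice are left out. Genes of 1 complex span a wide range, as for eIF2 from 87.2 to 1.82 RPKM, and the three-week points of Eef1a1 reach the level of Eif1.

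Factors of start codon selection and subunit joining were mostly level between groups. Eif1, which encodes the guardian of start codon choice, had 1149 and 1198 CPM in naive mice, 1262 and 1275 CPM at 1 week and 1154 and 1138 CPM at 3 weeks, with no call. Of the 7 genes of this group only Eif1a was called, with 10.4 and 13.6 CPM in naive mice, 12.1 and 8.88 CPM at 1 week and 17.9 and 16.7 CPM at 3 weeks. It was higher at 3 weeks than at 1 week by 0.72 ± 0.20 (adjusted p = 0.0183), a call lost with library totals alone (adjusted p = 0.0748) and without the second one-week library (adjusted p = 0.194) or the first three-week library (adjusted p = 0.0689).

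Its X-linked paralogue Eif1ax, which encodes a nearly identical protein, had 23.8 and 24.3 CPM, 26.3 and 25.4 CPM, and 25.2 and 22.8 CPM. Eif5 and Eif5b, which encode the GTPase activator of eIF2 and the GTPase that joins the subunits, were not called. Eif6, whose product keeps the large subunit apart from the small one, had 29.0 and 31.4 CPM in naive mice, 26.1 and 31.9 CPM at 1 week and 38.6 and 38.8 CPM at 3 weeks. It was higher at 3 weeks than at 1 week by 0.42 ± 0.14 (adjusted p = 0.0459), a call lost in 5 of the 8 other settings, DESeq2 and library totals alone among them (adjusted p up to 0.282), and whichever library was left out (adjusted p up to 0.375). Eif5a, which encodes the hypusine-bearing factor that helps stalled ribosomes, had 100.3 and 110.1 CPM, 101 and 90.6 CPM, and 136 and 112 CPM, and was not called (adjusted p = 0.0522 between 3 weeks and 1 week), while its paralogue Eif5a2 stayed at 0 to 0.231 CPM.

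**Figure D5:**
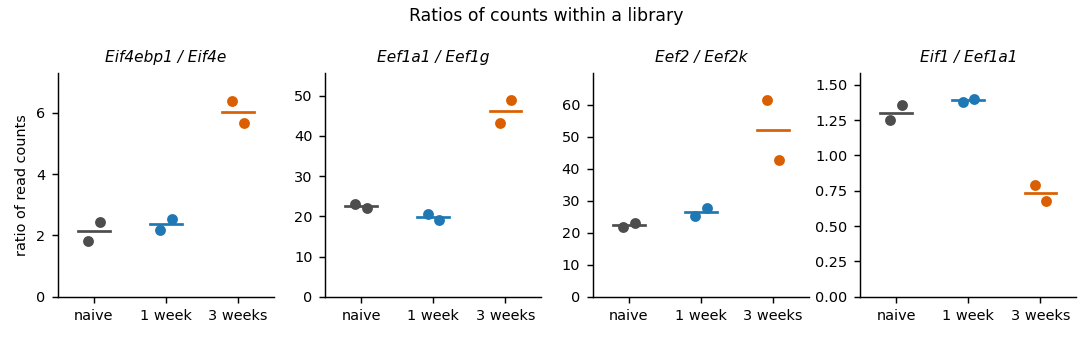
Ratios of read counts of 2 translation factor genes within a library (y axis) in naive, one-week and three-week LL2 mice (x axis). Points are libraries and lines group means, and no scaling between libraries enters. The ratios Eif4ebp1 to Eif4e, Eef1a1 to Eef1g and Eef2 to Eef2k are highest at 3 weeks, and Eif1 to Eef1a1 is lowest.

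Regulators of these factors were taken from separate lists. Their counts stand beside the share of all genes tested that were called. It was 7.99% at 1 week and 21.4% at 3 weeks against naive mice, and 22.5% between 3 weeks and 1 week. Of 6 eIF2 kinase and phosphatase subunit genes, 0 were called at 1 week against naive mice (by DESeq2 also 0, and 2 lower at an unadjusted p under 0.05), 1 was higher at 3 weeks, and 3 were higher at 3 weeks than at 1 week (2 by DESeq2). Ppp1r15b, which encodes CReP, the constitutive subunit that directs dephosphorylation of eIF2, had 207 and 174 CPM in naive mice, 165 and 145 CPM at 1 week and 326 and 308 CPM at 3 weeks. It rose at 3 weeks by 0.73 ± 0.12 against naive mice (adjusted p = 0.001) and by 1.04 ± 0.12 against 1 week (adjusted p = 7.47e-05). The kinase genes Eif2ak1 and Eif2ak3 (PERK) were higher at 3 weeks than at 1 week, by 0.38 ± 0.13 (adjusted p = 0.0497) and 0.66 ± 0.20 (adjusted p = 0.0325).

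In the list of mTORC1 and its upstream regulators, 2 of 12 genes were higher at 1 week than in naive mice, and 3 were higher and 1 lower at 3 weeks. Between 3 weeks and 1 week, 2 were higher and 1 lower. DESeq2 called 0 at 1 week against naive mice, so the calls of Mtor and Rptor there were edgeR's alone, and it called 2 higher and 1 lower at 3 weeks. Mtor, which encodes the kinase itself, had 5.62 and 5.32 CPM in naive mice, 9.21 and 9.17 CPM at 1 week and 11.7 and 11.5 CPM at 3 weeks, and was called in both tumor groups against naive mice (adjusted p = 0.0331 and 0.00145). Rptor, which encodes the scaffold raptor, was higher at 1 week by 0.89 ± 0.23 (adjusted p = 0.0325), and Rheb, which encodes the GTPase that activates the complex, was higher at 3 weeks by 0.94 ± 0.16 (adjusted p = 0.00126). Ddit4, which encodes an inhibitor of the complex, was also higher at 3 weeks (0.50 ± 0.16, adjusted p = 0.037), and Mlst8, another subunit gene, fell by 0.76 ± 0.12 on the log2 scale (adjusted p = 5.87e-04). The genes called higher at 3 weeks thus included the kinase, an activator and an inhibitor, and the gene called lower encodes a subunit.

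Of 11 partners of the cap-binding complex, 1 was higher and 1 lower than in naive mice at each time, and 3 were higher at 3 weeks than at 1 week. DESeq2 gave the same counts at each time against naive mice, and 2 higher and 1 lower at 3 weeks against 1 week. Pabpc1, which encodes the poly(A)-binding protein, had 453 and 379 CPM in naive mice, 267 and 279 CPM at 1 week and 532 and 463 CPM at 3 weeks, with both one-week libraries lowest, as for Eif4e3 and Eif4ebp2. It fell at 1 week by 0.61 ± 0.12 on the log2 scale (adjusted p = 0.0114) and was higher at 3 weeks than at 1 week by 0.87 ± 0.12 (adjusted p = 2.81e-04). Paip2, whose product withdraws this protein from the cap complex, was higher at 1 week (0.57 ± 0.13, adjusted p = 0.0154) and at 3 weeks (0.46 ± 0.13, adjusted p = 0.02). Ddx3x, which encodes an RNA helicase of initiation, fell at 3 weeks by 0.50 ± 0.11 on the log2 scale (adjusted p = 0.00494).

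Termination and recycling factors had 0 calls by edgeR and by DESeq2 in all 3 comparisons among 8 tested genes, with 1 lower at 3 weeks than at 1 week at an unadjusted p under 0.05. Of 10 mitochondrial translation factor genes, 2 were higher at 1 week (Guf1 and Mtif2) and 1 at 3 weeks (Guf1) than in naive mice, and 1 was lower at 3 weeks than at 1 week (Mtif3), whereas DESeq2 called 1 higher at 1 week and 0 in the other comparisons. Of the 10 members listed as known TOP mRNAs, 0 were called at 1 week against naive mice by edgeR and by DESeq2. At 3 weeks 4 were higher (Eef1a1, Eef2, Eif3f and Eif4b), or 40% against 12% of all genes. The calls of Eef2, Eif3f and Eif4b were lost with library totals alone. Between 3 weeks and 1 week, 4 were higher and 1 lower, or 40% and 10% against 12.9% and 9.57% of all genes. The median log2 fold changes of the 10 were 0.06 at 1 week and 0.30 at 3 weeks against naive mice. The 80 tested cytosolic ribosomal protein genes, the classical TOP mRNAs, had medians of 0.27 at 1 week and 0.46 at 3 weeks. Of them, 21 and 47 were higher than in naive mice (26.2% and 58.8%, against 4.23% and 12% of all genes) and 1 and 0 lower. These values were not compared by a test, and the same naive libraries underlie all of them.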

How the data were processed

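The authors prepared total RNA libraries from Ly6G-selected BM cells, sequenced them as single-end reads (75 bp per the labels, up to 50 bp in the methods) and estimated expected counts per gene with RSEM (1.2.31 in the submitters' processing notes, another version in the methods) on mm10 with the Ensembl transcriptome. They deposited these expected counts as whole numbers without normalization. A legend of the study gives 3 samples a group; the 2 libraries a group in the labels, 6 in all, were used. Symbols came from GENCODE annotation of GRCm38, which matched 37570 of 38887 identifiers.

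Genes passing edgeR's filterByExpr were scaled by TMM and tested with edgeR 4.0.16 (R 4.3.3), using its quasi-likelihood method with the 3 groups in 1 model. With 2 libraries a group, a p-value weighs a difference against the spread between libraries of a group. That spread was estimated over the 3 groups together and drawn towards that of other genes. RPKM used the APPRIS principal transcript. Members, lists and promoter letters were chosen with earlier results of these data known. Members called in any comparison, 4E-BPs, eIF2, eIF2B and paralogue pairs are given in full, other list genes only if called, at most 5 a list. Scripts were tested on simulated data. Alternatives were DESeq2 1.42.0, other scalings, filters and gene sets, the groups compared only, a fold over 5, a replicate block and each library left out. The deposited file holds no other columns, so none were left aside. Protein sequences, and the promoters of 16 members, are not analysed here.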

Additional observations from a re-analysis of the deposited data

Results flagged for a closer look

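Between 3 weeks and 1 week, 16 members were called, or 27.1% of the 59 tested against 22.5% of all genes. The contrast of 3 weeks against 1 week equals the difference of the 2 contrasts against the same naive mice. It was tested with edgeR's quasi-likelihood test at an adjusted p under 0.05. In log2 units it was 1.13 for Eif4ebp1, 0.78 for Eif4e3, 0.78 for Eef1a1, 0.75 for Eif4ebp2, 0.72 for Eif1a, 0.58 for Eif4b, 0.52 for Eif3h, 0.45 for Eif3f, 0.43 for Eif2s3x, 0.42 for Eif2b2, 0.42 for Eif6, 0.41 for Eif4e2, 0.37 for Eif4a1 and 0.34 for Eif3c. It was -0.44 for Eef1g and -0.66 for Eef2k. Of these 16 differences, those of Eif4ebp1, Eif4e3 and Eef1a1 were called under each other setting and with each library left out, apart from a required fold change over 5, which none reached. With 2 libraries a group, single outlying libraries could not be tested for.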

How the results depend on the processing

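With library totals alone, members called at 1 week were 1 higher and 2 lower, at 3 weeks against naive mice 6 higher and 6 lower, and against 1 week 4 higher and 6 lower. Without a filter on low counts, 2 were higher at 1 week and 9 at 3 weeks against 1 week. With a mean of at least 50 counts, these were 3 and 9, and with protein-coding genes alone 2 were higher at 1 week. The number of all genes called also moved with the setting. At 1 week it was 979 in the main fit, 838 with library totals alone and 1537 without a filter. It was 859 with a mean of at least 50 counts and 855 with protein-coding genes alone. At 3 weeks against naive mice it was 2626 in the main fit and 2565 with library totals alone. DESeq2 called 9 higher and 1 lower at 3 weeks against 1 week. A fold change over 5 left 0 calls in either direction in the 3 comparisons. The difference between the medians of members and of all genes was -0.059, 0.074 and 0.16 and became -0.029 and 0.044 without a filter at 1 and at 3 weeks against naive mice. With a mean of at least 50 counts it was -0.030, 0.036 and 0.084.

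With each library left out in turn, 0 to 3 members were lower at 1 week and 0 to 1 higher, 4 to 7 were higher and 1 to 2 lower at 3 weeks against naive mice, and 4 to 13 were higher and 0 to 2 lower against 1 week. The differences of medians ran from -0.067 to -0.026, from 0.064 to 0.11 and from 0.14 to 0.23. Fewer libraries enter these fits. In comparisons with naive mice, leaving out a library of either compared group also lowered the number of all genes called. Whether a call lost in such a fit is particular to the gene was not tested.

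The replicate numbers mark different mice, and deviations from the group means of same-numbered libraries correlated at 0.01, 0.036 and 0.038. These values showed no pairing by number, and whether libraries shared a batch is not stated in the labels. With a replicate block, 0 members were higher and 2 lower at 1 week, 10 and 2 at 3 weeks against naive mice, and 11 and 2 against 1 week. Of the 30 calls, 14 were lost with library totals alone, 8 with DESeq2 and 3 with the block, and 0 reversed. Where no cause is given, the cause was not tested. At these depths, members under about 0.2 CPM could not be compared.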
